A study of Arabidopsis thaliana with 3 samples.

Results

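*MIR165a* and *MIR165b* are the 2 *Arabidopsis thaliana* loci that encode miR165. They were taken by locus name, which uses no measured value, and make up 2 of the 11 *MIRNA* loci and 48 of the 264 entries of the deposited table. The entries came from 3 replicate sRNA-seq libraries of inflorescences of wild-type plants of the Columbia accession (Col-0), with no mutant, treatment or second tissue. Each library had been aligned to the genome by 8 methods, and the table lists the reads placed at each locus and the same value as RPM, the reads per 1000000 of 1 total for each library. These totals were 9624898, 11578886 and 8274294 reads in replicates 1, 2 and 3. The study describes the libraries as biological replicates, and neither it nor the labels says whether each came from separate plants or from a pool. An inflorescence mixes many cell types, and in such a bulk sample fewer cells of a type and less RNA per cell cannot be told apart. Because the table holds 11 *MIRNA* loci and no other gene, the tissue label could not be checked against marker genes.

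miR165 and its close relative miR166 pair with the mRNAs of the class III homeodomain-leucine zipper (HD-ZIP III) transcription factors, among them *PHABULOSA* (*PHB*), *PHAVOLUTA* (*PHV*) and *REVOLUTA* (*REV*), and direct ARGONAUTE1 to repress them. HD-ZIP III factors specify the upper side of leaves and floral organs, maintain the shoot meristem and pattern vascular tissue, and both miRNAs confine them to these domains. Each miRNA is cut from the stem of a hairpin precursor by DICER-LIKE1. Since the 2 miR165 loci release the same mature RNA, a read of it is a multi-mapping (MMAP) read, with equally good alignments at both loci, and its sequence alone does not tell where it was transcribed.

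The mature sequences are shown because their identity is what makes these reads ambiguous, and because a single substitution separates miR165 from the miR166 reference used later. Sequences and positions are from RefSeq on TAIR10.1, and capitals mark the seed, bases 2 to 8 from the 5′ end.
miR165 from *MIR165a*: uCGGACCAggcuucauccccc
miR165 from *MIR165b*: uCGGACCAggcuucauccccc
miR166 from *MIR166a*: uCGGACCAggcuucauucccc
miR165 and miR166 share the seed and differ by C17T (DNA letters, miR165 base first, counted from the 5′ end of the mature miRNA). miR165 had 2 exact matches in the genome, at chr1:78932-78952 and chr4:369856-369876, both on the minus strand. miR166 had 7.

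The precursors are shown because the sequence around the mature miRNA is what distinguishes the paralogs. Capitals mark the mature miR165.
*MIR165a*: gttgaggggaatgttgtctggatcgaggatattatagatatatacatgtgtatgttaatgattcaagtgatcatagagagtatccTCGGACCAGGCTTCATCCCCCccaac
*MIR165b*: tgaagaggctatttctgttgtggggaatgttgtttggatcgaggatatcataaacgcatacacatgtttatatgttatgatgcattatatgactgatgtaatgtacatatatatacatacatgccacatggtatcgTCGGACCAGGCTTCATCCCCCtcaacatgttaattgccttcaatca
The annotated precursor of *MIR165a* (AT1G01183, chr1:78927-79037, minus strand) is 111 nt long, and that of *MIR165b* (AT4G00885, chr4:369831-370012, minus strand) is 182 nt long. In both, the mature miRNA lies on the 3′ arm, with 5 bases after it in *MIR165a* and 25 in *MIR165b*. Identity between the loci ended at both ends of the mature miRNA, with 0 matching bases directly before it and 0 directly after it. A read that matches either precursor exactly and extends beyond the mature miRNA by a single base would therefore fit that locus alone. In a global alignment of 182 columns, 96 of 111 aligned base pairs of the precursors were identical (86.5%). The other columns were gaps, which this percentage leaves out.

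The 5′ arms, from which the partner strand of miR165 (miR165*) is cut, are shown because they differ between the loci. Capitals mark the differing base.
*MIR165a*: ggaatgttgtCtggatcgagg
*MIR165b*: ggaatgttgtTtggatcgagg
The first is annotated as miR165a-5p (chr1:79010-79030). The second is the closest stretch of the *MIR165b* precursor (chr4:369969-369989), for which RefSeq annotates no miRNA. They differ by C11T (*MIR165a* base first, counted from the 5′ end of the arm), and each had 1 exact match in the genome. The loop side is longer in *MIR165b*, where 92 bases separate the 5′ arm from the mature miRNA, against 57 in *MIR165a*. A predicted minimum free energy fold had -45.8 kcal/mol for *MIR165a* and -66.3 kcal/mol for *MIR165b*, and paired 17 of the 21 bases of the mature miRNA in each.

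ShortStack in unique-weighting mode (ShortStack-U) divides MMAP reads in proportion to the uniquely aligned reads found in 5 bins of 50 nt around each candidate alignment. With bins counted from the first base of each chromosome, this window of 250 nt was chr1:78801-79050 at *MIR165a* and chr4:369751-370000 at *MIR165b*. The first holds its whole precursor. The second leaves out the 12 bases at the 5′ end of its precursor but still holds the 5′ arm. Of the 250 21-mers that start in each window, 249 at *MIR165a* and 246 at *MIR165b* occur once in the genome. The mature miRNA itself is the 1 exception at *MIR165a* and 1 of 4 at *MIR165b*. *MIR165a* lies on the strand opposite the noncoding gene AT1G08765, inside an intron that runs between exons ending at 78089 and starting at 79097, and its window touches no exon of that gene. No annotated gene overlaps *MIR165b*, whose nearest neighbors are AT4G00880 at 2556 nt and AT4G00890 at 3947 nt.

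**Figure D1:**
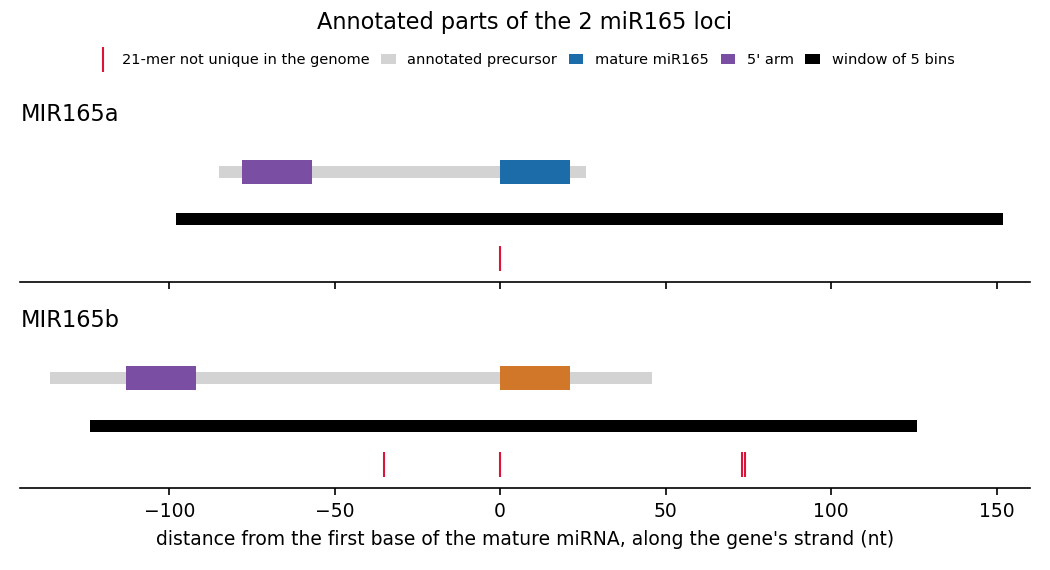
Map of *MIR165a* (top) and *MIR165b* (bottom), with distance in nt from the first base of the mature miRNA along the strand of the gene. Bars show the annotated precursor, mature miR165 (blue at *MIR165a*, orange at *MIR165b*), the 5′ arm and the 250-nt window of 5 bins, and ticks show the start of 21-mers found more than once in the genome, which number 1 at *MIR165a* and 4 at *MIR165b*.

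All 5 HD-ZIP III genes held a site for miR165 in their coding sequence. The sites are shown because they are what the mature miRNA pairs with, and because the base facing position 17 of the miRNA, in capitals, is where miR165 and miR166 pair differently.
*PHB* and *PHV*: uuggGaugaagccugguccgg
*REV* and *ATHB8*: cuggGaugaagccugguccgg
*ATHB15*: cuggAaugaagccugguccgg
Each site spans an exon junction, of exons 4 and 5 in the *PHB*, *PHV*, *REV* and *ATHB15* transcripts and of exons 5 and 6 in that of *ATHB8*. The *PHB* site lies at chr2:14642530-14642539 and chr2:14642656-14642666, and the *REV* site at chr5:24398787-24398797 and chr5:24398889-24398898. In an ungapped pairing, miR165 formed 18 Watson-Crick pairs, 1 G:U pair and 2 mismatches with the sites of *PHB*, *PHV*, *REV* and *ATHB8*, where miR166 formed 17, 2 and 2. At *ATHB15* the counts were 17, 1 and 3 for miR165 and 18, 1 and 2 for miR166. No mRNA was measured in these libraries.

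Under ShortStack-U, most miR165 reads were placed at *MIR165a* in every library. *MIR165a* received 210619, 210213 and 217456 reads in replicates 1, 2 and 3. *MIR165b* received 22699, 27875 and 20900 reads. The reads of the paralogs did not overlap. *MIR165b* was highest in replicate 2, where *MIR165a* was lowest but nearly level with replicate 1. In RPM both paralogs were highest in replicate 3. Reads at *MIR165a* outnumbered those at *MIR165b* by 9.28, 7.54 and 10.4 to 1, a mean of 9.07 ± 1.44 (SD, n = 3). On the log2(RPM + 1) scale the difference was 3.17 ± 0.24 (SD, n = 3), with *MIR165a* higher in 3 of 3 libraries. Swapping the paralogs within libraries in every way (exact permutation test, two-sided) gave p = 0.25, and 3 libraries cannot reach a smaller value.

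In RPM, *MIR165a* stood at 21883 in replicate 1, 18155 in replicate 2 and 26281 in replicate 3. The intervals of these values were 21789 to 21976, 18077 to 18233 and 26171 to 26392 RPM (95% Poisson intervals on the placed reads, which cover counting error only because copies made by PCR were not told apart). They also leave out the error of the fewer uniquely aligned reads that set the placement. The libraries lay far apart at *MIR165a*, also with intervals that take the share from the number of uniquely aligned reads calculated in the closing observations (21702 to 22051, 18005 to 18301 and 26068 to 26486 RPM). *MIR165b* stood at 2358 RPM in replicate 1 (2328 to 2389), 2407 RPM in replicate 2 (2379 to 2436) and 2526 RPM in replicate 3 (2492 to 2560). On the calculated uniquely aligned reads the intervals were wider, 2190 to 2539, 2262 to 2557 and 2321 to 2739 RPM. All 3 of these overlapped, so a difference between libraries at *MIR165b* in RPM was not detectable with them. The ratio of the highest to the lowest library was 1.07 for *MIR165b* and 1.45 for *MIR165a*.

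**Figure D2:**
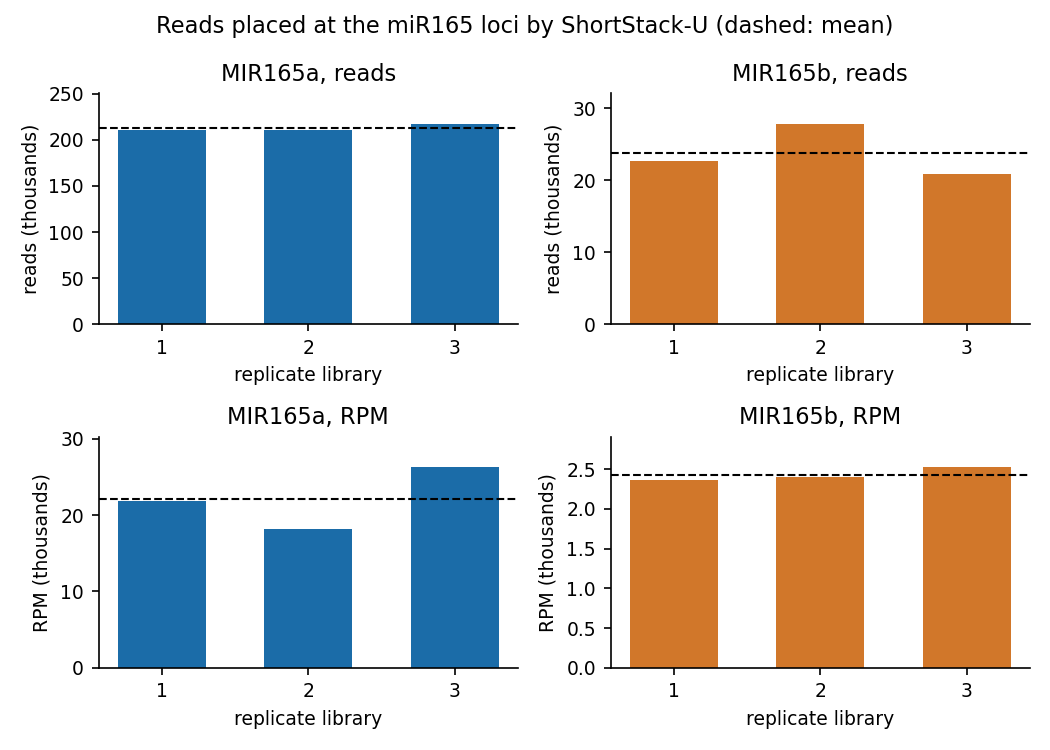
Reads (top) and RPM (bottom), each in units of 1000, placed by ShortStack-U at *MIR165a* (left) and *MIR165b* (right) in each replicate library, with the mean as a dashed line. *MIR165a* is nearly level in reads and *MIR165b* nearly level in RPM, where it runs from 2358 to 2526.

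How steady *MIR165b* was against *MIR165a* depended on the scale. In RPM, the coefficient of variation (CV, the SD as a percentage of the mean) over the 3 libraries was 3.54% for *MIR165b* and 18.4% for *MIR165a*. In raw reads the order was the opposite, with 15.2% for *MIR165b* and 1.91% for *MIR165a*. *MIR165b* had the lowest CV of all 11 loci in RPM and *MIR165a* the lowest in reads. On the calculated uniquely aligned reads near each locus, counting error was 3.93, 3.302 and 4.37% at *MIR165b* in replicates 1, 2 and 3, and at most 1.36% at *MIR165a*. These are errors of the uniquely aligned reads, not of the placed values. The CV of *MIR165b* in RPM lay within their range, which does not show that its level was constant. That level is a share (CV 14.9%) of a family sum in RPM (CV 16.8%), and the share was highest in the library where the sum was lowest. The CV of *MIR165b* in reads and both CVs of *MIR165a* were above the counting error of their locus. The library totals had a CV of 16.9%, and the RPM of *MIR165a* was highest in the library with the smallest total and lowest in the one with the largest. Which reads the total counts is not given in the sources used here, and with 3 libraries a change in the total and a change in miR165 cannot be told apart.

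Other denominators gave both orders. Per 1000 miR166 reads, *MIR165b* had 33.0, 36.5 and 27.1 reads in replicates 1, 2 and 3 (CV 14.8%), and *MIR165a* had 306, 275 and 282 (CV 5.59%). Per 1000 reads of all 11 loci the CV was 14.6% for *MIR165b* and 4.47% for *MIR165a*. This sum includes the paralogs themselves, and *MIR165a* made up 209 to 228 of each 1000 reads, which holds down its CV on this scale. Per 1000 miR390 reads *MIR165b* was again the steadier paralog, with 18.0% against 26.5%, but miR390 itself rests on only 3297 to 5687 reads per library. Thus *MIR165b* had the smaller CV in RPM and per miR390 read, and *MIR165a* had it in reads, per miR166 read and per read of the 11 loci. The same test of the difference in spread (exact permutation, two-sided) gave p = 0.5 in RPM and p = 0.25 in reads. It cannot give less than 0.25 with 3 libraries.

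**Figure D3:**
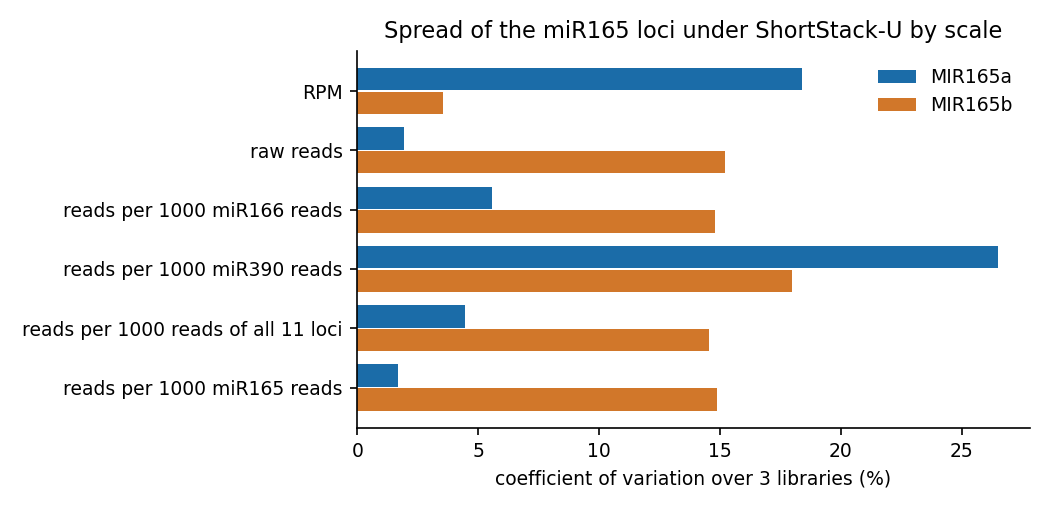
Coefficient of variation (%) over the 3 libraries of *MIR165a* and *MIR165b* under ShortStack-U, for RPM, raw reads and reads relative to 4 sums of loci. The bars change places between RPM, where *MIR165b* is at 3.54% and *MIR165a* at 18.4%, and raw reads, where they are at 15.2% and 1.91%.

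In the share of the paralogs the library total cancels, and replicate 2 stood apart from the others. *MIR165b* took 9.73% of the miR165 reads in replicate 1 (95% Clopper-Pearson interval 9.61 to 9.85%), 11.7% in replicate 2 (11.6 to 11.8%) and 8.77% in replicate 3 (8.66 to 8.88%). The shares spanned 2.94 percentage points, and these intervals, which rest on the placed reads, did not overlap. With the calculated uniquely aligned reads in their place the intervals were 9.03 to 10.5%, 10.999 to 12.4% and 8.06 to 9.51%, so that of replicate 2 lay apart and those of replicates 1 and 3 overlapped. A chi-square test of the placed reads by paralog and library gave 1181 with 2 degrees of freedom (adjusted p = 1.63e-256, Benjamini-Hochberg over 5 methods). It compares libraries, not conditions, and its p is too small, since it takes every placed read as independent although their split comes from fewer uniquely aligned reads. Without replicate 2 the span fell to 0.960 percentage points.

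The 4 other methods that give MMAP reads a position placed more of them at *MIR165b*. Its level was 11998 ± 2046 RPM (SD, n = 3) under ShortStack-F, which also gives weight to MMAP reads in the window, 12242 ± 2083 under ShortStack-R, 12276 ± 2085 under bowtie and 12276 ± 2078 under bwa. Under ShortStack-U it was 2431 ± 86.1 RPM. The CV of *MIR165b* in RPM was between 16.9 and 17.0% under these 4 methods, like that of *MIR165a* (16.6 to 16.7%), so the low CV of *MIR165b* in RPM was seen under ShortStack-U alone among the 5 methods. Where the split is near equal, the CV of each paralog follows that of the family sum (16.8%). The share of *MIR165a* did not differ detectably between libraries under ShortStack-F, ShortStack-R, bowtie or bwa (chi-square tests, adjusted p = 0.57, 0.13, 0.63 and 0.63), with spans of 0.213, 0.349, 0.137 and 0.130 percentage points. Under ShortStack-R, bowtie and bwa this share is set by random placement, so their tests do not bear on the paralogs. Under ShortStack-F the equal parts lent by MMAP reads outweigh the uniquely aligned reads. These were calculated in the closing observations as 2.50 to 3.29% of the miR165 reads. A difference between libraries in their split would hardly move the ShortStack-F share, so no conclusion is drawn from its test either. Novoalign, ShortStack-N and the -m 1 setting of bowtie, all of which set MMAP reads aside, listed 0 reads at both loci in all 3 libraries.

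The 3 random methods pick among the possible positions at random, so a near equal split is set by the method and says nothing about the paralogs. Read by read, their placement stayed close to it. In replicate 1, bowtie placed 116694 reads at *MIR165a* and 116624 at *MIR165b*, a difference of 70 reads. The study reports that bowtie by default favors top-strand positions. This pair cannot show such a bias, because both loci lie on the minus strand. The 95% interval held 50% in 8 of the 9 combinations of library and random method. The exception was ShortStack-R in replicate 2, with 1474 more reads at *MIR165a* (50.3%, interval 50.1 to 50.5%, exact binomial test, adjusted p = 0.0076 over 12 tests). ShortStack-F placed 5212, 5810 and 4802 more reads at *MIR165a* than at *MIR165b* in replicates 1, 2 and 3. Its shares of *MIR165a* were 51.1, 51.2 and 51.0%, and none of the 3 intervals held 50%. These tests compare reads within single libraries, and for the random methods they check the placement, not the paralogs.

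**Figure D4:**
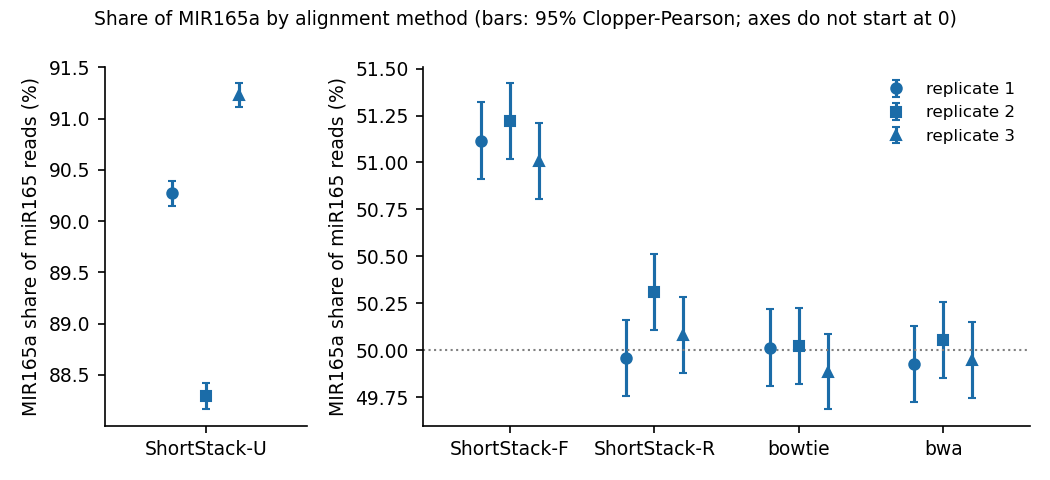
Share (%) of miR165 reads placed at *MIR165a* in each replicate library, with ShortStack-U on its own axis (left) and the 4 other placing methods (right, with a dotted line at 50%). Bars are 95% Clopper-Pearson intervals on the placed reads and neither axis starts at 0, and only under ShortStack-U do all 3 intervals lie apart, and under ShortStack-F all 3 lie above 50%.

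The family sum does not depend on how reads are divided between the paralogs and was the same under the 5 methods. It was 24241 RPM in replicate 1, 20562 RPM in replicate 2 and 28807 RPM in replicate 3, which is between 2.06 and 2.88% of the library total. In reads the sum had a CV of 1.20%, against 16.8% in RPM. Each read is placed at 1 locus, so a read given to *MIR165b* is not counted at *MIR165a*, and the reads of the 2 paralogs are not independent.

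The miR166 loci served as the reference for the family. There were 0.339 miR165 reads per miR166 read in replicate 1 (95% counting interval 0.337 to 0.341), 0.312 in replicate 2 (0.311 to 0.313) and 0.309 in replicate 3 (0.308 to 0.311). The intervals of replicates 2 and 3 just failed to overlap, and replicate 1 stood above both. The mean was 0.320 ± 0.0165 (SD, n = 3), or 3.13 ± 0.157 miR166 reads for each miR165 read. The ratio is of reads in libraries made with 1 kit and was not calibrated here. For *MIR165a* alone under ShortStack-U the ratio was 0.288 ± 0.0161 and for *MIR165b* alone 0.0322 ± 0.00476 (SD, n = 3). *MIR165a* was highest in replicate 1, at 0.306, and *MIR165b* in replicate 2, at 0.0365, so the paralogs differed in the library where each stood highest.

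**Figure D5:**
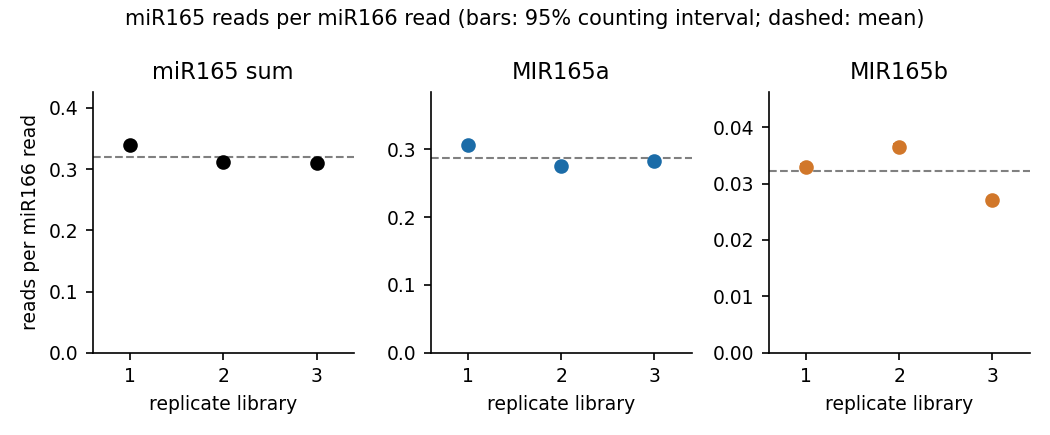
Reads of the miR165 family, of *MIR165a* and of *MIR165b* under ShortStack-U per miR166 read in each replicate library, with 95% counting intervals on the placed reads (smaller than the points) and the mean as a dashed line. The family runs from 0.309 to 0.339 and *MIR165b* from 0.0271 to 0.0365.

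Among the other 10 loci, likeness of pattern over the 3 libraries was measured as the root mean square difference of log2(RPM + 1) under ShortStack-U, centered on the mean of each locus. *MIR165a* was closest to *MIR166a* (0.048), the leading miR166 paralog, at 71306, 62185 and 92879 RPM in replicates 1, 2 and 3, and next to *MIR166c* (0.15), at 29.3, 30.2 and 44.2 RPM. *MIR165b* was closest to *MIR390b* (0.15), a paralog of the miR390 family that starts *trans*-acting siRNA production, at 72.4, 78.9 and 64.9 RPM, and next to *MIR166b* (0.19), at 14.2, 17.2 and 21.4 RPM. The paralogs themselves were 0.192 apart, so each was nearer to loci outside the pair than to the other. For *MIR165b* the distance to *MIR166b* (0.186) was nearly the same as that to *MIR165a*. These distances rest on 3 libraries that share their totals and carry no test.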

How the data were processed

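sRNA-seq libraries of Col-0 inflorescences were made by the authors with the TruSeq Small RNA kit, trimmed of 3′ adapters and aligned to TAIR10 with bwa, Novoalign, bowtie (its default and -m 1) and 4 modes of ShortStack, U, F, R and N. The deposited counts are whole reads per locus, library and method, without normalization. The deposited RPM values are these counts over 1 total per library, identical for all methods. Replicates were not pooled.

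Library totals were recovered from reads and RPM. 3 reads, the limit a count of 0 allows, are worth 0.259 to 0.363 RPM. Shares carry Clopper-Pearson intervals, levels Poisson intervals. A pseudocount of 1 was used on the log2 scale, and the threshold was 0.05. With 1 group of samples, tests compared paralogs, methods or libraries. The likeness rule named the 2 nearest loci to each member. The members, lists and tests were chosen with earlier results of these data known. Alternatives were other pseudocounts, denominators, averages, adjustments and methods, and leaving out each replicate. Sequences came from TAIR10.1 (RefSeq), and no position was taken from the deposited table. HD-ZIP III sites were the best ungapped matches with at most 4 mismatches in 7 transcripts. Code was tested on simulated data. Tools were Python 3.11.15, numpy 2.4.6, scipy 1.17.1, pandas 2.3.3, matplotlib 3.10.9, Biopython 1.88 and RNAfold 2.7.2. The qRT-PCR data were not analysed here.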

Additional observations from a re-analysis of the deposited data

How the results depend on the processing

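Of 54 recomputed values, 1 for each result and alternative, 9 changed sign and 1 newly passed the threshold. Some of the sign changes, and the value that newly passed, came from methods that split the reads nearly equally. There the method itself keeps the differences small, and their sign says little about the paralogs. Among the family sum, the miR165 to miR166 ratio and the calculated uniquely aligned reads, 1 value moved by more than the spread between libraries. For the paralog ratio, the spread and the shares between libraries, a change in size alone was not counted. The fall of the log2 ratio under ShortStack-F and ShortStack-R, given below, is therefore not among these counts. The tests of the paralog ratio and of the spread cannot reach the threshold with 3 libraries, so for them only the values can be compared. The difference in CV between the paralogs (*MIR165b* minus *MIR165a*, -14.9 percentage points in RPM) changed sign in raw reads (13.3), per miR166 read (9.20) and per read of the 11 loci (10.1), and with ShortStack-F (0.423), ShortStack-R (0.365), bowtie (0.294) or bwa (0.188) in place of ShortStack-U. It was -8.51 per miR390 read, -29.9 as range over mean, and -22.5 to -8.06 with a replicate left out. The log2 ratio of *MIR165a* to *MIR165b* was 3.06 to 3.296 with a replicate left out, 0.064 under ShortStack-F, 0.0068 under ShortStack-R, -0.0014 under bowtie and -0.0013 under bwa. Without the replicate block, that is with labels permuted across libraries, the ratio under ShortStack-U stayed at 3.17 (exact permutation p = 0.1, the smallest it can give), against 0.25 with libraries as pairs, so neither p says anything about stability. The span of the *MIR165a* share under ShortStack-R was 0.121 to 0.349 percentage points with a replicate left out, and passed the threshold without replicate 3 (chi-square test, adjusted p = 0.042, against a range of 0.042 to 0.56). The family sum was 241321 with the reads of the 11 loci as the total for RPM, in place of 24537 RPM, because that total is smaller. The shares under ShortStack-U are limited by the uniquely aligned reads, calculated as 5969 to 7836 per library, and 3 libraries limit every statement on spread.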

Other observations

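ShortStack-F adds to the uniquely aligned reads of a window a fraction of each MMAP read, which is an equal part for each of the 2 miR165 loci. The shares under ShortStack-U and ShortStack-F can therefore be solved for the number of uniquely aligned reads in both windows that would give them, if the miR165 reads of the table were the only MMAP reads there and all were placed with the same weights. This calculation gave 6656 reads in replicate 1 (5418 to 7907, from the 95% Clopper-Pearson interval of the ShortStack-F share), 7836 in replicate 2 (6510 to 9177) and 5969 in replicate 3 (4755 to 7195). The intervals of the 3 libraries overlapped. The numbers correspond to 2.85, 3.29 and 2.50% of the miR165 reads, and to 692, 677 and 721 RPM, a mean of 697 ± 22.7 RPM (SD, n = 3). By the shares under ShortStack-U, 648, 917 and 523 of these reads would lie near *MIR165b*, or 67.3, 79.2 and 63.3 RPM in replicates 1, 2 and 3. Near *MIR165a* they would come to 624, 598 and 658 RPM. The CV of these calculated RPM values was 11.9% near *MIR165b* and 4.85% near *MIR165a*. That order is the opposite of the one for placed reads in RPM, and the difference was not tested. The calculated totals had wide intervals, 563 to 821, 562 to 793 and 575 to 870 RPM in replicates 1, 2 and 3. Their error enters the values near both loci, so the order of these CVs is not established. With the pooled share under ShortStack-U the mean was 6796 reads in place of 6820. The share and RPM intervals that the report gives for calculated uniquely aligned reads are Clopper-Pearson intervals on these numbers, rounded to whole reads, with the family sum taken as fixed. These are values derived from the weighting rules, and the uniquely aligned reads themselves were not analysed here.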
